A study of Mus musculus with 4 samples.

Results

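Cytosolic ribosomal protein genes were examined for CTCF binding in cultured mouse cortical neurons. The members were taken by symbol from protein-coding genes of the RefSeq table of GRCm38.p6. They are the genes whose symbol is Rpl or Rps with a number, together with the stalk genes Rplp0, Rplp1 and Rplp2. Kinases of the Rps6k family and symbols that mark paralogs, retrogenes or binding partners were left out. This rule found 76 genes among 21774 protein-coding genes on assembled chromosomes, of which 46 belong to the large and 30 to the small ribosomal subunit. Some genes of cytosolic ribosomal proteins, such as Rpsa and Fau, have symbols that fall outside the rule. Membership was fixed by symbol and not by the peaks of a gene, but the group itself was chosen with earlier results of these data known.

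The neurons were wild type, from embryonic day 16 cortex of Swiss-Webster mice, kept in culture for 13 days; the treatment label is none, although the culture protocol shared by the labels also mentions etoposide. Whether embryos were pooled is not given in the labels. Chromatin from about 15M cells per replicate was precipitated with an antibody against CTCF in 2 biological replicates, each with an input library. The deposited data are 1 list of 33820 peaks matched between the replicates, all at an irreproducible discovery rate (IDR) no higher than 0.05. There is 1 condition, so no comparison between groups of samples exists, and genes are not replicates of one another. Shares below are therefore given with exact Clopper-Pearson 95% intervals, which cover counting error only, and without tests. The depth of each library is unknown from this list. A list of bound DNA holds no RNA levels, so the label of the cells was not checked with marker genes.

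The cytosolic ribosome translates messenger RNA in every cell. Its small subunit reads the messenger RNA and its large subunit joins the amino acids, and the proteins of both are needed in near-equal amounts. Many of their genes are short, are transcribed at high rates, start within a run of pyrimidines (the TOP tract) and carry small nucleolar RNAs in their introns. CTCF recognises DNA through zinc fingers and, together with cohesin, shapes chromatin loops; many of its sites lie near promoters.

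The upstream sequences of 4 members with strong peaks, and of an X-linked one, show what lay under the CTCF summits. All are from RefSeq, build GRCm38.p6, on the strand of the gene, and hold the 250 bases before the start. In the first 2, capitals mark a CTCF core pattern, read as CCA, any 2 bases, AG, any 2 bases, GGC. In Rpl10a, capitals mark the reverse complement of that pattern with 1 of its 8 fixed letters differing. In Rps15 and Rps3a1, which had neither within 30 bp of the summit, capitals mark the 21 bases centred on the joint summit.
Rplp0 (chr5:115559217-115559466, plus strand): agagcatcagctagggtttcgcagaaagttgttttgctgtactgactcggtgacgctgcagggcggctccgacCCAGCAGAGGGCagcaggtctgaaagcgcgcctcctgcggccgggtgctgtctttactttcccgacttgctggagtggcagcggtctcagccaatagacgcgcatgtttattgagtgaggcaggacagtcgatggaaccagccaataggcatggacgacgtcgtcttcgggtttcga
Rps4x (chrX:102189392-102189641, minus strand): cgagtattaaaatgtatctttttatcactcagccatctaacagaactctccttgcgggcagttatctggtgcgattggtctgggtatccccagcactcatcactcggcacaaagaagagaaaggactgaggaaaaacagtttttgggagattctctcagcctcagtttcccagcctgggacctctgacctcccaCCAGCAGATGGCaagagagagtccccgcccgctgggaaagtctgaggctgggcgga
Rpl10a (chr17:28328221-28328470, plus strand): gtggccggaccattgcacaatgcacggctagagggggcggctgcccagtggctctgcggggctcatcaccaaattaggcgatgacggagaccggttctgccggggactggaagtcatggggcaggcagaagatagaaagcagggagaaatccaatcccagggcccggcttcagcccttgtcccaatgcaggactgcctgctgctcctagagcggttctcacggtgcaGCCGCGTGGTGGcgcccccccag
Rps15 (chr10:80292181-80292430, plus strand): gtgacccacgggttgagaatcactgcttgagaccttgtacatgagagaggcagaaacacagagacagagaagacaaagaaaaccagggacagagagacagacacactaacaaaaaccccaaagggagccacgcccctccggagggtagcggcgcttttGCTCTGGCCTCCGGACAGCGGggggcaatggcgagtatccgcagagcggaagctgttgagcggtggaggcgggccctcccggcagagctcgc
Rps3a1 (chr3:86142669-86142918, minus strand): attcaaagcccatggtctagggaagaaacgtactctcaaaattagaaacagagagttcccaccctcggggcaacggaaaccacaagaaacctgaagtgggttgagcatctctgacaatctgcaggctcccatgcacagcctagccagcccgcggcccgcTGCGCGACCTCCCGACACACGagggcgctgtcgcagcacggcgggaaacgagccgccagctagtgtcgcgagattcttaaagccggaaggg

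Promoter windows, from 250 bases before to 50 after a start, were listed for 56 of the 76 members. The exact core, searched on both strands, stood in the windows of 3 members, Rplp0, Rps4x and Rpl38 (5.36%), against 2.75% of 17492 protein-coding genes with a window. All 3 had a summit within 1 kb of a start, and none of the 33 members without such a summit held the core. In Rps4x the middle of the core lay 4 bp from the joint summit. In Rplp0 it lay 16 bp from the summit of the second replicate column and 497 bp from that of the first. The core of Rpl38 reads CCAGAAGAGGGC, and it lay 60 bp from the summit of the second column and 632 bp from that of the first. Over all genes, 10.9% of 1562 windows that contain a summit held the exact core, so most summits at promoters fell on windows without these letters. With 1 fixed letter allowed to differ, a pattern that 35.5% of all windows hold, 11 of 23 members with a start peak and 8 of 33 without one had a match. Over all genes it was 63.7% of those with a summit inside the window and 30.5% of those with none within 1 kb. Of the members with a summit inside the window, 5 of 9 had a match. A match describes the letters of a window and does not show a bound site.

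Other promoter patterns of the members were searched in the same windows, the lettered ones on both strands. The ETS-type pattern CCGGAAG stood in 23 of 56 members (41.1%), against 12.9% of all genes. It stood in 11 of the 23 members with a start peak and in 12 of the 33 without one. Among the 9 members with a summit inside the window it stood in 3. Over all genes it was in 19.5% of those with a summit inside the window and in 11.3% of those with none within 1 kb. On the strand of the gene, a run of at least 5 pyrimidines covering the listed start was found in 20 of 56 members (35.7%), against 10.2% of all genes. By CTCF, it was in 14 of the 33 members without a start peak, in 6 of the 23 with one, and in 0 of the 9 whose summit lay inside the window. Over all genes it was in 12.1% of those with a summit inside the window and in 9.60% of those with none within 1 kb of a start, which is the opposite order. The YY1-type pattern AAGATGGC was in 5 members (8.93%, against 3.57%), the GC box GGGCGG in 34 (60.7%, against 49.2%) and the TATA box TATAAA in 6 (10.7%, against 14.8%). The median GC content of the windows was 57.0% in members and 56.3% over all genes. It was 59.0% in members with a start peak and 56.6% in those without. Over all genes with a start peak it was 62.7%.

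A CTCF peak at a gene end means here a summit within 1 kb of either end of the gene. Of the 76 members, 39 had one (51.3%, interval 39.6 to 63.0), against 29.2% of all protein-coding genes. This count was known when the genes were chosen for description. Both subunits stood at about the same share. Of 46 large subunit genes 24 had an end peak (52.2%, interval 37.0 to 67.1), and of 30 small subunit genes 15 (50.0%, interval 31.3 to 68.7). The difference was 2.17 percentage points with an interval of −21.9 to 26.1, which takes in differences of 20 points in either direction. Among members between 2 and 5 kb long, 28 of 54 (51.9%) had an end peak, against 27.7% of protein-coding genes of that length. Below 2 kb it was 4 of 10, where 8.10% of all genes had one, and from 5 to 10 kb 7 of 11, where 28.3% did.

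**Figure D1:**
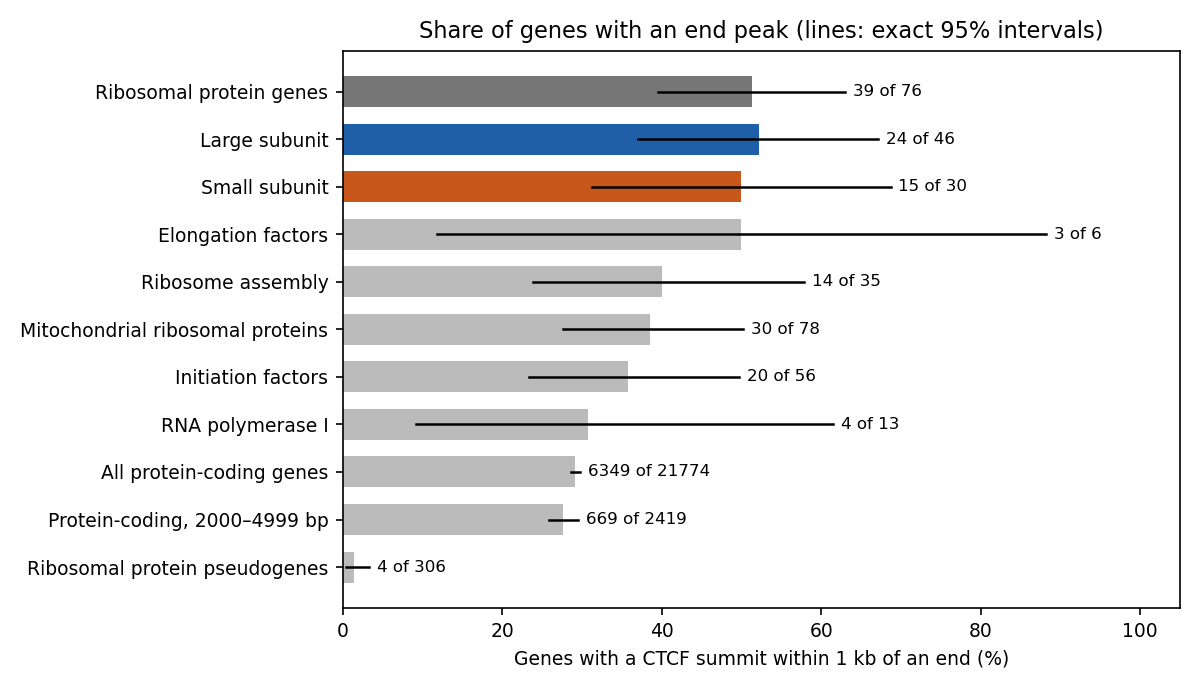
Horizontal bars give the percentage of genes in each group with a CTCF summit within 1 kb of an end, lines the exact 95% intervals, and labels the counts. The bars of the large subunit (24 of 46) and the small subunit (15 of 30) end close together and above that of all protein-coding genes (6349 of 21774), and ribosomal protein pseudogenes stand at 4 of 306.

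Peak strength here is the joint −log10 p in the authors' list, which adds the values of the matched peaks of both replicates. It serves only to rank peaks within the list. The strongest end peak of a member had a median strength of 334 over the 39 genes, from 39.5 to 1630. Over all 6349 protein-coding genes with an end peak the median was 174. Strengths above 500 were found in 15 of the 39 (38.5%) and in 20.8% of all genes with an end peak; above 1000 they were found in 6 (15.4%) and in 6.95%. The median was 356 for large and 282 for small subunit genes, and the ranges overlapped almost fully, 39.5 to 1537 against 41.7 to 1630. The order of the medians turned round among peaks at an IDR of at most 0.01 (398 for large and 580 for small) and in the second replicate column alone (219.96 and 239). The interquartile range ran from 114 to 647 in the large and from 95.6 to 873 in the small subunit.

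In the small subunit the highest value was at Rps3a1, which encodes eS1, a protein beside the messenger RNA exit site. Its peak (chromosome 3, 86142000 to 86143606) had a −log10 p of 871 in one replicate (the first column) and 759 in the other (the second), which add up to 1630, and a summit 81 bp upstream of the start. Pairs of values below keep that order. Rps20 (505 and 541, chromosome 4) and Rps15 (473 and 502, chromosome 10) had joint strengths of 1046 and 975. These 3 genes were high in both columns, with no value below 473.

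Rps14, whose loss underlies the anaemia of the 5q deletion syndrome, gave 309 and 461. Rps19, the gene most often mutated in Diamond-Blackfan anaemia, a failure of red cell production, had a strong peak 812 bp beyond its 3′ end (116 and 580) and a weaker one 605 bp upstream of the nearest listed start (62.1 and 321). X-linked Rps4x gave 226 and 239. Weaker end peaks of small subunit genes were at Rps29 (joint strength 282), Rps10 (259), Rps6 (97.3), Rps26 (70.0), Rps3 (56.8) and Rps27a (41.7). Rps6 is the substrate of the S6 kinases and Rps27a encodes a ubiquitin fusion; both carried weak peaks just inside the gene. Between Rps4x at 464 and Rps29 at 282 lay no value of the small subunit.

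Among large subunit genes, Rplp0 stood highest. It encodes the base protein of the stalk that recruits translation factors, and is a common reference gene. Its peak (chromosome 5, 115558507 to 115560043) gave 675 and 862, a joint strength of 1537. Rpl10a gave 699 and 560 (joint strength 1259; chromosome 17, 28327418 to 28329271) and Rpl36 604 and 652 (joint strength 1255). Both stalk partners of Rplp0 lacked an end peak: the nearest summit lay 2623 bp from Rplp1 (strength 382) and 4269 bp from Rplp2 (strength 81.4). Rpl12, at the stalk base, had its nearest summit 3438 bp away.

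Joint strengths from 522 to 655 were found at 5 large subunit genes: Rpl13a (233 and 422), Rpl26 (237 and 414), Rpl22 (147 and 499), Rpl37 (296 and 319) and Rpl38 (160 and 362). Rpl38 is known for its part in the translation of Hox messages, and Rpl22 for roles in lymphocyte development. Rpl37 gave nearly equal values in both columns, while in Rpl22 the second was over 3 times the first. Rpl4 (203 and 221), Rpl32 (43.8 and 355) and Rpl11 (63.8 and 315) came next. Rpl5 and Rpl11, which with 5S RNA form the particle that restrains Mdm2, both had an end peak, 50 and 93 bp outside the gene; that of Rpl5 gave 86.3 and 217. The weakest end peak of all members was at Rpl35 (10.4 and 29.1).

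**Figure D2:**
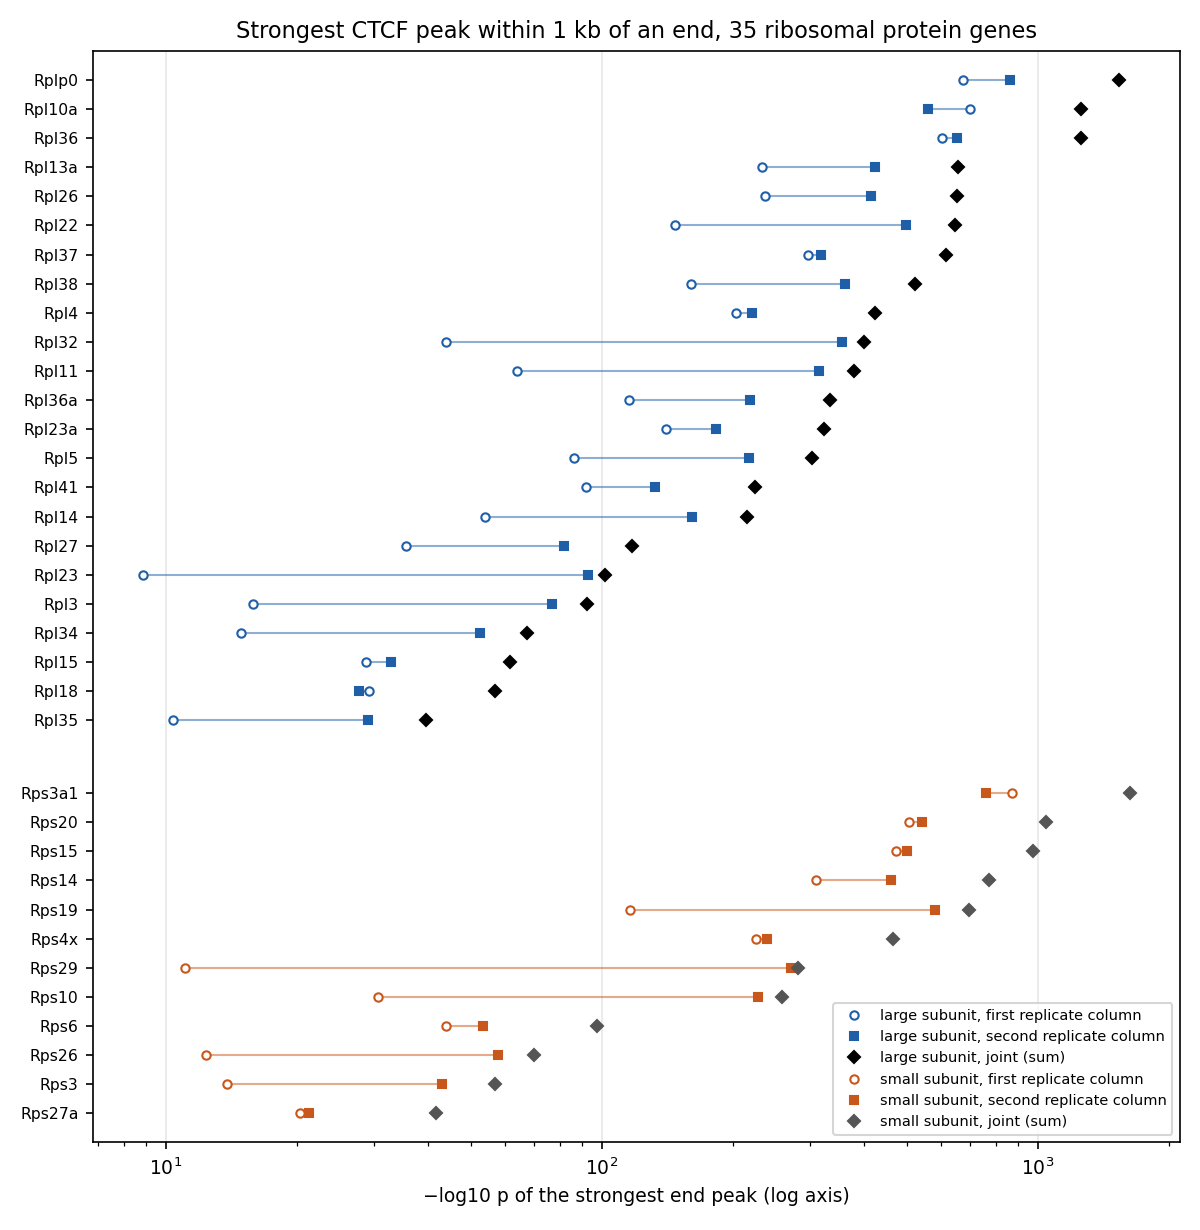
Each row is 1 of 35 members with an end peak, with the −log10 p of its strongest end peak on a log axis: open circles for the first replicate column, squares for the second, diamonds for their sum. In both subunits values spread from about the limit of the list to above 1000, with Rps3a1 (1630) and Rplp0 (1537) at the top and Rpl35 (39.5) at the bottom.

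By position in the ribosome the members with end peaks were scattered; the share to read these small counts against is 29.2% of all protein-coding genes. Of 8 proteins that line or surround the peptide exit tunnel, 4 genes had an end peak (Rpl4, Rpl23a, Rpl26, Rpl35) and 4 did not (Rpl17, Rpl19, Rpl31, Rpl39). At the messenger RNA entry, Rps3 had one and Rps2 did not. At the messenger RNA exit, 3 of 4 genes had one. Genes mutated in Diamond-Blackfan anaemia had 12 of 19 (63.2%, interval 38.4 to 83.7), so their interval covers the share of all members. Of 4 X-linked genes, Rpl36a and Rps4x had one, Rpl10 and Rpl39 did not, against 11.8% of all protein-coding genes on that chromosome. By chromosome, chromosome 11 had 6 of 7 members with an end peak (33.3% of all its protein-coding genes), chromosome 7 had 7 of 14 (25.1%) and chromosome 1 had 0 of 3 (30.9%). Chromosome 4 had 4 of 5 (29.8%) and chromosome 10 had 3 of 4 (32.9%). Hosts of small nucleolar RNA genes, 29 by the RefSeq table, had 13 (44.8%), and the other 47 members had 26 (55.3%).

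The 39 genes held 48 different end peaks. Of these, 36 summits lay outside the gene and 12 inside it. An end peak near each of the 2 ends was found in 10 members, among them Rpl3, Rpl4, Rpl13a, Rpl26, Rpl36, Rpl38, Rps15 and Rps19. This is 13.2% of the members (interval 6.49 to 22.9), against 2.23% of all protein-coding genes. In genes between 2 and 5 kb long it was 6 of 54 members and 1.86% of all genes. The 2 ends could differ widely. At Rpl36 the weaker end gave 28.5 and 29.8, against 604 and 652 at the other. At Rps15 the weaker end gave 22.4 and 64.6. At Rpl38 the ends were alike, with joint strengths of 522 and 480.

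Strand was listed for 56 members. A summit within 1 kb of a start was found in 23 of them (41.1%, interval 28.1 to 55.0), against 27.2% of 17492 protein-coding genes with a listed start. Of 34 large subunit genes 16 had one (47.1%, interval 29.8 to 64.9), and of 22 small subunit genes 7 (31.8%, interval 13.9 to 54.9). These intervals overlap. At the 3′ end 12 of 56 had a summit (21.4%), against 6.57% of genes with a listed start. Among genes between 2 and 5 kb long the 3′ share was 5 of 37 members (13.5%) against 7.72%, and the start share 17 of 37 (45.9%) against 21.1%. The start peaks of Rpl22 and Rps2 lay by a start inside the gene and so are not counted as end peaks.

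Summits at member starts lay mostly upstream, and the upstream ones had the higher median strength. Of 23 start summits 16 (69.6%) lay upstream, at a median of −130 bp from the start, and 7 at or after it, at a median of 213 bp. Upstream summits had a median strength of 424, from 39.5 to 1630. They included Rps3a1 at −81 bp, Rplp0 at −145, Rpl10a at −33, Rps15 at −82, Rpl13a at −352, Rpl26 at −115, Rpl37 at −285 and Rps4x at −54. Downstream summits had a median of 75.2, from 58.9 to 522. They were at Rpl38 (170 bp), Rpl27 (150), Rpl15 (179), Rps6 (213), Rpl4 (239), Rpl34 (320) and Rpl22 (514), and Rpl38 was the only one of them above 500. These sides are those of the joint summit: at Rpl14, Rpl27, Rpl34 and Rpl38 the replicate summits lay on opposite sides of the start, and at Rpl38 that of the stronger, second column was at −176 bp. With these 4 left out, a count added after seeing the data, 15 summits lay upstream in both columns, with a median strength of 464, and 4 downstream in both, with a median of 68.4. Over all genes with a listed start the order of strengths was the same, but summits did not lie mostly upstream. There 49.1% of 4918 start summits lay upstream, with a median strength of 235, against 100 for the others.

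**Figure D3:**
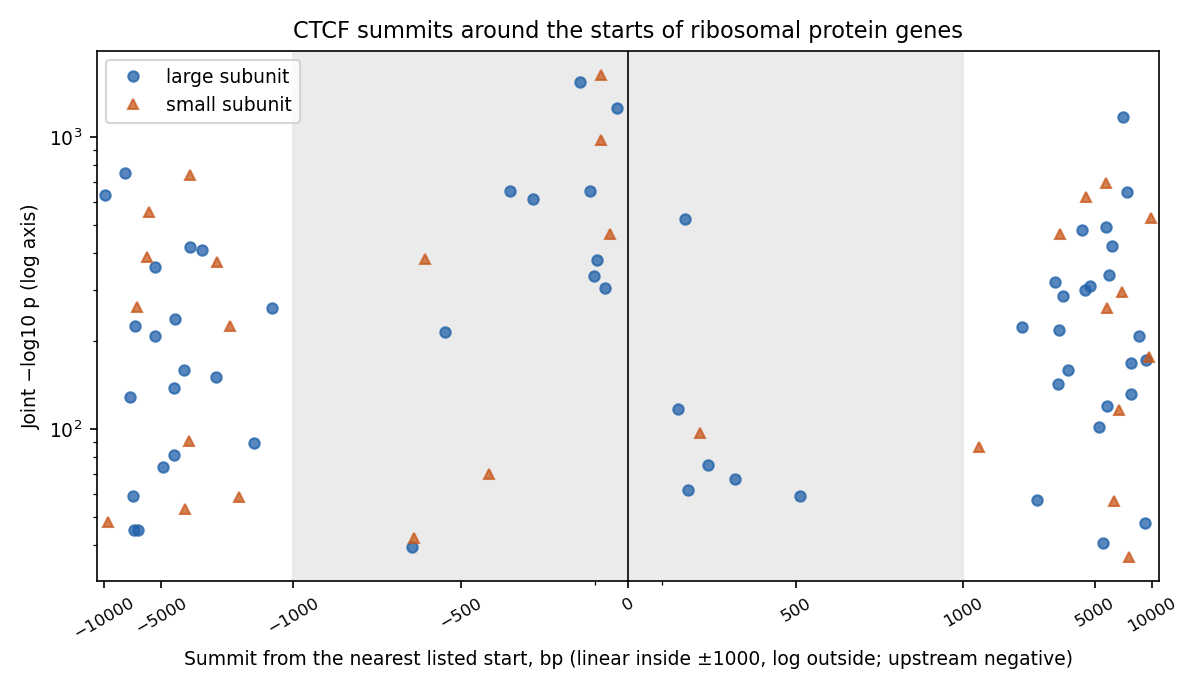
Each point is a CTCF summit around 1 of the members with a listed start; the horizontal axis is the distance from the nearest start in bp, linear inside 1000 bp (shaded) and logarithmic outside, and the vertical axis is the joint strength on a log axis. Inside the shaded window the tallest points gather between −145 and −33 bp, while points after the start lie low except Rpl38 (522), whose replicate summits lie on opposite sides of the start.

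All 48 end peaks were also read in each replicate column. The second column was higher in 45 and the first in 3, with a median log2 ratio of second to first of 1.19. The 3 were Rps3a1, Rpl10a and Rpl18 (29.3 against 27.8). Over all 6096 end peaks of protein-coding genes the second was higher in 71.1%, with a median log2 ratio of 0.40, and over all peaks in 90.7%, with 1.91. Neither column is tied to a labelled replicate. The largest ratio was at Rps29 (11.04 against 271), and Rpl23 also had a wide gap (8.84 against 93.0). In the authors' deposited table the replicate summits of the end peaks lay a median of 22 bp apart. In 7 peaks they lay over 300 bp apart, all at large subunit genes, among them Rpl14 (1740 bp), Rpl34 (988), Rpl38 (692), Rpl3 (657), Rplp0 (513) and Rpl27 (421). For these 7 the joint summit stands for replicate positions that differ. How often this holds over all end peaks was not counted, so it is not read as a trait of the large subunit.

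**Figure D4:**
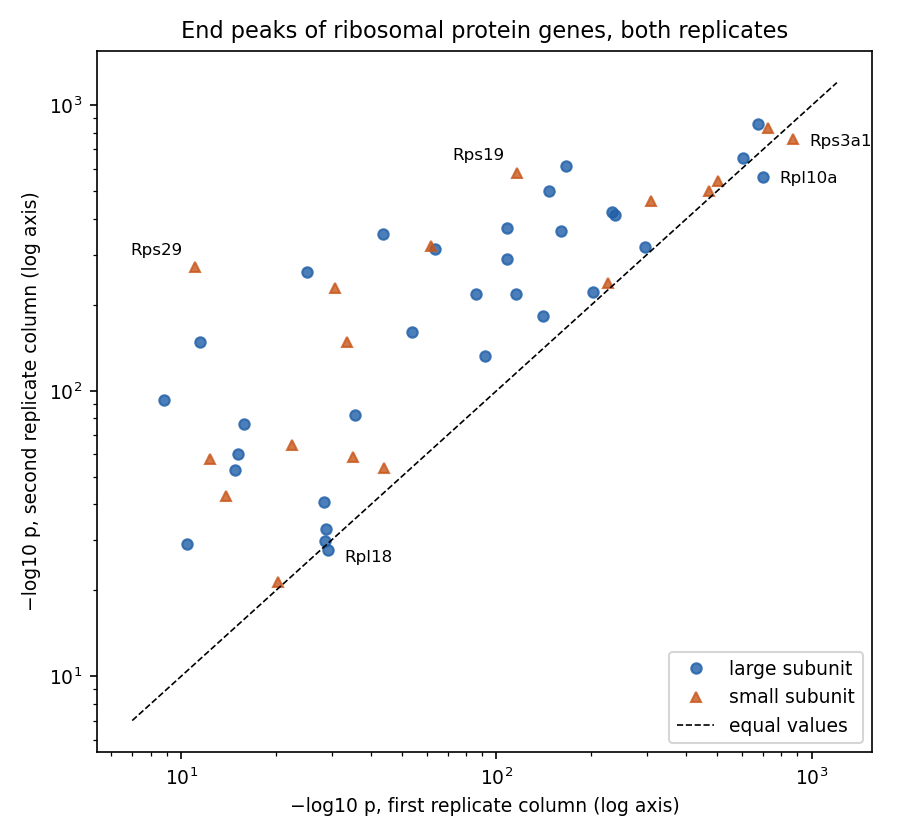
The 48 end peaks of members are plotted by −log10 p in the first (horizontal) and second (vertical) replicate column, both on log axes, with circles for large and triangles for small subunit genes and a dashed line of equal values. Strong peaks approach or cross the line, as Rps3a1 and Rpl10a do, while Rps29 (11.04 and 271) lies far above it.

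Neighbouring genes were counted next, since a peak can lie at the ends of more than 1 gene. Another protein-coding gene ended or started within 1 kb of 28 members (36.8%), against 24.8% of all protein-coding genes. Over all genes 39.6% of those with such a neighbour had an end peak, against 25.7% of those without. In the members the counts were 14 of 28 with a neighbour (50.0%) and 25 of 48 without one (52.1%). Of the 48 end peaks, 11 were also within 1 kb of an end of another gene. They include the strong peak 921 bp inside Rpl36, which also lies at an end of the mitochondrial protease gene Lonp1 (strength 1255), that of Rpl37 and Card6 (615) and that of Rpl4 and Snapc5 (424). Of the 31 end peaks of the large subunit 10 were shared in this way, and of the 18 of the small subunit 2. Counting only ends with no other gene end within 1 kb, 18 of 43 large subunit genes (41.9%) and 14 of 24 small subunit genes (58.3%) had a peak. Both subunits together had 32 of 67 (47.8%), which was 23.8 points above other protein-coding genes counted the same way. With this count the order of the subunits turned round; the difference was −16.5 points.

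Within 10 kb, or inside the gene, 69 of 76 members had at least 1 peak (90.8%, interval 81.9 to 96.2), against 66.6% of all protein-coding genes. It was 42 of 46 in the large and 27 of 30 in the small subunit. Members and their flanks held 143 different peaks. Counted gene by gene, so that a shared peak counts for each gene, there were 8.14 per 100 kb of genes and flanks. Over all protein-coding genes, whose median length is 17219 bp, the same count gave 2.32 per 100 kb. The median number of peaks within 10 kb of or inside a gene was 1.5 for members and 1.0 over all protein-coding genes. Rps15 had the most, 6. Peaks deep inside a gene, over 1 kb from both ends, were found in 4 members (5.26%), Rpl22, Rpl24, Rpl3 and Rps2, against 35.5% of all protein-coding genes. The median member is 3169.5 bp long, so little of it lies that far from an end, while the median over all genes is the 17219 bp given above. Rpl24 (71.5 and 248) and Rps2 (14.6 and 27.8) had such a peak and none at an end.

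Another 28 members had peaks only in the flanks. Some of these were strong, with 823 at 7661 bp from Rps25 and 742 at 3512 bp from Rps24. Rpl35, which had the weakest end peak, also had a flanking peak of 1169 at 3470 bp. The 7 members with no peak within 10 kb were Rpl9, Rpl10, Rpl31, Rpl35a, Rps7, Rps9 and Rps18. Rps7 lay farthest from any summit, at 41290 bp, followed by Rps9 at 28884 and Rpl10 at 21543 bp. Of these 7, Rps7, Rpl31 and Rpl35a have been linked to Diamond-Blackfan anaemia. The list of such genes counted above holds 19 of the 76 members. The 1 kb limit itself parted close values: Rpl22 (947 bp), Rps10 (960) and Rpl41 (996) were just inside, and Rpl19 (1143), Rpl7a (1163) and Rps2 (1302) just outside.

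Other genes of translation were counted in the same way. Mitochondrial ribosomal protein genes had an end peak in 30 of 78 (38.5%, interval 27.7 to 50.2), led by Mrps16 (strength 1937), Mrps12 (1670) and Mrps33 (1612). Initiation factors had 20 of 56 (35.7%), with Eif3g (1347), Eif5b (931) and Eif2s1 (866) strongest. Ribosome assembly genes had 14 of 35 (40.0%), with Utp3 (1270), Rrp1 (1168) and Bms1 (1062) strongest, and RNA polymerase I genes 4 of 13, led by Taf1c (586), Twistnb (350) and Taf1d (59.4). Elongation factors had 3 of 6, at Eef1b2 (749), Eef1a2 (300) and Eef1d (178). The cytosolic ribosomal protein genes thus had the highest share of these lists, with intervals that overlap those of each of the others.

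Processed pseudogenes of ribosomal protein genes share exon sequence with the members but usually lack their promoters. Of 306 pseudogenes named after a ribosomal protein gene, 4 had a summit within 1 kb of an end (1.31%, interval 0.36 to 3.31): Rpl5-ps2, Rpl14-ps1, Rpl38-ps1 and Rps19-ps10. Over all 9853 pseudogenes of the table it was 2.65%. Reads from near-identical copies can be placed at either copy, and how the authors treated such reads is not given in the sources used here.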

How the data were processed

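CTCF immunoprecipitations (2) and inputs (2) were deposited as 1 joint peak table of 20 columns in the layout of the IDR program. Per the submitters' processing notes, FastQC, Trimmomatic, BWA, SAMtools and MACS2 were used, with builds mm10 and GRCm38.p6. Versions, roles and thresholds were not given in the sources used here. Deposited −log10 p values of each replicate, and their sum, were used as they stand and are not scaled to depth, which is unknown; the score column, also deposited, rescales the IDR and gave no reported value. The columns name no labelled replicate. Replicate summits come from the authors' deposited table.

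Genes and starts came from RefSeq tables of GRCm38.p6; 33815 peaks on assembled chromosomes were used. The summit is the joint one. Strand was listed for 56 members, and a gene with several listed starts counted where any of them qualified. No statistical test was run; other windows, strength limits, peak definitions and gene rules were tried as alternatives. The members and gene lists were chosen with earlier results of these data known; the lists of positions in the ribosome, the pseudogenes and the loosened core were added later.

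Genes were named by a fixed rule: per subunit the 12 strongest end peaks, the stalk genes, members with 2 end peaks, with only an inside peak, with none within 10 kb, beside another member, nearest the 1 kb limit, or stronger in the first column, and the top 3 of each other list. Further members, named to fill counts, were chosen after their values were seen. A few genes are counted but not reported here by name, and one added gene rule is not reported.

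The counting was tested on simulated data: of 100 planted end peaks among 21774 genes all 100 were recovered. Software was matplotlib 3.10.9, scipy 1.17.1, pandas 2.3.3 and numpy 2.4.6 under Python 3.11.15.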

Additional observations from a re-analysis of the deposited data

How the results depend on the processing

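The excess of members over other protein-coding genes, 22.2 percentage points, stayed above 0 in all 11 alternatives, from 13.9 points at listed starts to 27.2 points with any base of the peak. The members' share of 51.3% fell to 34.2% with peaks above the median joint strength, 35.5% with those above the median of either replicate column alone and 38.2% with windows of 500 bp. The excess over other genes was then 19.4 points (joint), 14.5 (first column), 22.5 (second column) and 17.8 (500 bp). The members' share rose to 63.2% with any base of the peak and 76.3% with windows of 5 kb. There the excess was 27.2 and 25.1 points, so the share of other genes rose as well. The large subunit share was 80.4% with 5 kb windows. The small subunit share was 30.0% with peaks above the median joint strength or above that of the first column, and 70.0% with 5 kb. The difference of the subunits, 2.17 points, changed sign in 3 of 11 alternatives: −16.5 with unshared ends, −3.70 with the wider symbol pattern (47 of 98 genes) and −5.51 when the summits of both replicates had to be within 1 kb, a setting chosen after seeing the data. In the other 8 it ran from 2.46 to 15.2 points; the cause was not tested. The members' share with a peak within 10 kb fell to 77.6% (joint), 75% (first column) and 76.3% (second column) among peaks above the median. The share of all genes at these 10 kb settings is not given here. The median strength was 104 for large and 43.8 for small subunit genes by the first column alone, which is 1 part of the sum; the order turned round by the second column alone (219.96 and 239) and at an IDR of at most 0.01 (398 and 580). No paired analysis was possible because the list joins both replicates and names neither; for the same reason no replicate could be left out. Depth, and with it the weakest detectable peak, is unknown.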
